A study of Mus musculus with 2 samples.

Results

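Cell cycle and DNA replication genes were examined in control RNA-Seq of bone marrow-derived macrophages (BMDMs) from WT mice and from mice lacking the mRNA-destabilizing protein TTP (gene *Zfp36*) in myeloid cells (ΔM). The members are 42 genes named by their known roles, from the cyclins of G1 to the kinases of mitosis, and were found in the expression table by their gene symbols. Of these, 41 were among the 37451 genes of the table, and the expression of *Cdt1* was not analysed here. WT BMDMs were of the strain C57BL/6, and ΔM BMDMs were C57BL/6 TTP fl/fl LysMCre, that is, both copies of *Zfp36* can be cut by a Cre recombinase made from the lysozyme M locus. The marrow came from femur and tibia of littermates 7 to 9 weeks old, and the cells were grown with CSF-1 from L929 cells. Both cultures received 100 μM 4-thiouridine for 16 h and then 10 ng/ml LPS for 6 h, so neither library shows unstimulated or unlabeled cells. Cre made in this way acts only in cells that express lysozyme M, and cells that escape it keep *Zfp36*.

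There was 1 library per genotype. The differences below therefore have no replicate check, no standard deviation and no p-value, and they compare these libraries rather than the genotypes. The values are FPKMs, 1 for each gene, which are fragment numbers scaled to exon length and to the mapped fragments of the library. Low FPKMs come in steps of 1 fragment, and these steps gave a depth of about 37100000 fragments in WT and 32800000 in ΔM. Intervals in brackets are 95% Poisson intervals at these depths for the median length of a gene's annotated transcripts, and they cover counting error only. In bulk RNA, fewer cells in cycle cannot be told apart from less of a transcript per cell. *Zfp36* itself was at 65.3 in WT and 16.7 FPKM in ΔM. Genes whose mean over both libraries was 1 FPKM or more are called expressed here. All 10 macrophage markers examined were expressed, with a sum of 4653 in WT and 3516 FPKM in ΔM, and of 2172 and 2159 FPKM for the 9 markers other than *Lyz2*. None of the 28 markers of myeloid progenitors and neutrophils, lymphocytes, fibroblasts or erythroid cells was expressed. Their sums were 0.41, 0, 0.64 and 0.76 FPKM in WT, and 1.04, 0.08, 0.40 and 0.09 FPKM in ΔM, in the same order. *Lyz2*, the lysozyme M gene that carries the Cre, was at 2481 in WT and 1356 FPKM in ΔM. The part that any of these differences has in the values below was not tested.

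A cell enters the division cycle when D-type cyclins, made in response to growth factors such as CSF-1, activate CDK4 and CDK6. These kinases phosphorylate the retinoblastoma protein RB, which then releases E2F transcription factors, and E2F drives the genes of cyclin E, of the MCM helicase that licenses replication origins, and of nucleotide supply. Cyclin A, cyclin B and CDK1 then carry the cell through S phase, G2 and mitosis, where many genes are controlled by the MuvB complexes through a promoter element called CHR (cell cycle genes homology region). Inhibitors such as p21, the product of *Cdkn1a*, hold the kinases back. BMDMs proliferate in CSF-1, and LPS is known to stop their division.

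Across the members, *Cdkn1a* stood far above the others in both libraries, G1 genes and a few replication genes were at several FPKM, and mitosis genes were below 1 FPKM. Of the 41 members 17 were expressed (41.5%), against 36.3% of the 22259 protein-coding genes. The 2 members nearest to the minimum of 1 FPKM had means of 0.98 FPKM (*E2f1*) and 1.25 FPKM (*Mcm3*). The sum over the 41 members was 236.63 in WT and 237.46 FPKM in ΔM. Without *Cdkn1a* it was 81.26 in WT and 81.62 FPKM in ΔM.

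**Figure D1:**
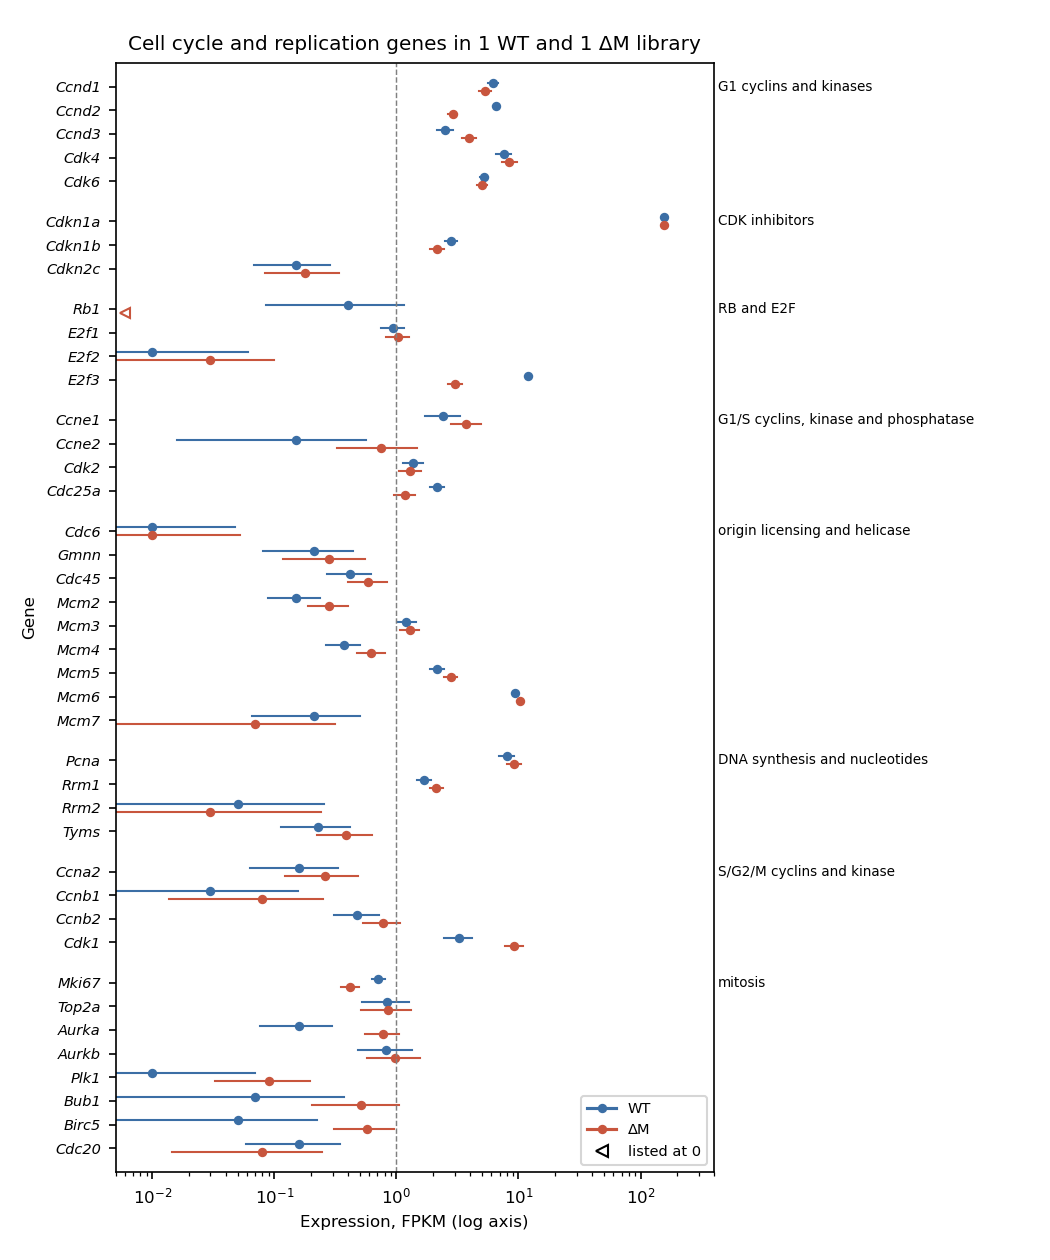
Expression of the 41 members, by role, in the WT library (blue) and the ΔM library (red), in FPKM on a log axis. Bars are 95% Poisson counting intervals for the median transcript length, and the number of fragments behind those of *E2f3* is not known. The dashed line marks 1 FPKM, and the open triangle marks *Rb1*, listed at 0 in ΔM. *Cdkn1a* lies near 155 FPKM in both libraries and all 8 mitosis genes lie under 1 FPKM.

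*Cdkn1a*, which encodes the CDK inhibitor p21, was at 155.37 FPKM in WT (150.46 to 160.40) and at 155.84 FPKM in ΔM (150.61 to 161.21). It was thus above 98% of protein-coding genes in both libraries, at the 98.97th percentile in WT and the 98.99th in ΔM. Its value was 12.9 times that of the next highest member in WT and 15.2 times in ΔM, and it made up 65.7% and 65.6% of the members' FPKM sum. Log2 ratios given here set ΔM over WT with 1 FPKM added to each. The ratio of *Cdkn1a* was 0.00, and the intervals of the libraries overlapped almost entirely. *Cdkn1a* (mm9 chromosome 17, 29227924 to 29237667, plus strand) was also the 1 member in the study's list of TTP binding sites at 6 h of LPS. The study obtained these by PAR-iCLIP, a crosslinking method that locates the RNA bound by a protein. Its list of TTP sites at an earlier time of LPS was not read, so other members may be in that list. All 7 listed sites of *Cdkn1a* lie in the 3′ UTR in exon 3, the last exon, and 2 of them contain the pentamer ATTTA, the core of AU-rich elements. These 2 sites are shown with ATTTA in capitals because they are sites bound by TTP in the expressed member whose level differed least between the libraries. They start 255 and 87 nt after the end of the coding sequence.
*Cdkn1a* TTP site chr17:29236590-29236618 (mm9, +): atttctattatgtagattattattATTTA
*Cdkn1a* TTP site chr17:29236422-29236449 (mm9, +): tcttaattattatttgtgttttaATTTA
A site of HuR, another protein that binds AU-rich elements, covers the last 6 nt of the upper sequence (chr17:29236613-29236618, tATTTA). *Ccnd2* and *Cdk6* were in the list of HuR sites as well, of which only a shortened copy was read, so that other members may be in it. FPKMs at 1 time point are levels of RNA and do not measure its decay.

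The other CDK inhibitors were low. *Cdkn1b*, which encodes p27, was at 2.80 FPKM in WT (2.51 to 3.11) and 2.14 FPKM in ΔM (1.87 to 2.44), with a log2 ratio of -0.28. Its intervals did not overlap, but with the shortest annotated transcript they did. *Cdkn2c*, which encodes p18, an inhibitor of CDK4 and CDK6, was at 0.15 FPKM and 0.18 FPKM.

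The D-type cyclins differed from each other in direction. *Ccnd2* was at 6.49 FPKM in WT (6.15 to 6.85) and 2.89 FPKM in ΔM (2.65 to 3.15), a log2 ratio of -0.95. On the FPKM scale, without the added 1 FPKM, it was 2.25-fold lower in ΔM. This gene has 1 annotated transcript, and its values correspond to about 1324 and 521 fragments. *Ccnd3* was higher in ΔM, at 2.50 FPKM in WT (2.14 to 2.90) and 3.96 FPKM in ΔM (3.47 to 4.49), a log2 ratio of 0.50. *Ccnd1* was at 6.20 in WT and 5.33 FPKM in ΔM, a log2 ratio of -0.19. Its intervals overlapped, but with the longest annotated transcript they did not (5.78 to 6.64 in WT and 4.92 to 5.77 in ΔM). The D-type cyclin genes together were at 15.19 in WT and 12.18 FPKM in ΔM, and the share of *Ccnd2* in this sum was 42.7% in WT and 23.7% in ΔM. In WT the values of *Ccnd1* and *Ccnd2* could not be ordered within counting error, whereas in ΔM *Ccnd1* was the highest of the 3 cyclins. Their partner kinases differed little between the libraries. *Cdk4* was at 7.56 and 8.43 FPKM, a log2 ratio of 0.14, and *Cdk6* at 5.23 and 5.03 FPKM, a log2 ratio of -0.05. Exons of *Ccnd1*, *Ccnd3*, *Cdk4* and *Cdk6* overlap those of a gene on the other strand, and whether the counting used strand is not given in the sources used here. The gene opposite *Ccnd3*, *Bysl*, was at 0.58 FPKM in both libraries, and *Gm17590*, opposite *Cdk6*, was at 209.29 in WT and 85.96 FPKM in ΔM. *Oraov1*, opposite *Ccnd1*, was at 7.56 in WT and 5.76 FPKM in ΔM. *Tspan31*, opposite *Cdk4*, was at 18.26 in WT and 17.62 FPKM in ΔM. The part of these genes in the members' values was not tested.

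Among the genes of RB and E2F, *E2f3* showed the lowest ratio of the 17 expressed members, at 12.08 in WT and 3.03 FPKM in ΔM, a log2 ratio of -1.70. *E2f3* has annotated transcripts of 216 and 4702 nt. A fragment on the shorter one, which is close to the mean fragment length of 202 nt, adds far more FPKM than a fragment on the longer one. The number of fragments behind the 12.08 FPKM is therefore not known, and the part of the short transcript in the difference was not tested. *E2f1*, an activator of entry into S phase, was at 0.93 FPKM in WT (0.75 to 1.15) and 1.03 FPKM in ΔM (0.82 to 1.27). *E2f2* was at 0.01 and 0.03 FPKM. *Rb1* was at 0.40 in WT and listed at 0 in ΔM, but its row covers 1241 bp of a gene of 142150 bp, so these values do not describe the whole gene.

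Of the genes that act at the step from G1 into S phase, *Ccne1* and *Cdc25a* differed in opposite directions. *Ccne1*, which encodes cyclin E1, was at 2.41 FPKM in WT (1.71 to 3.31) and 3.73 FPKM in ΔM (2.79 to 4.89), a log2 ratio of 0.47. Its intervals overlapped, but with the longest annotated transcript they did not (2.05 to 2.81 in WT and 3.25 to 4.26 in ΔM). *Ccne2* was at 0.15 and 0.75 FPKM. *Cdc25a*, the phosphatase that removes inhibitory phosphates from CDK2, was at 2.16 FPKM in WT (1.88 to 2.47) and 1.18 FPKM in ΔM (0.96 to 1.43), a log2 ratio of -0.54. Its intervals did not overlap, and on the FPKM scale it was 1.83-fold lower in ΔM. *Cdk2*, the kinase that cyclin E activates, was at 1.38 and 1.30 FPKM, a log2 ratio of -0.05.

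The MCM genes encode the 6 subunits of the ring-shaped helicase that unwinds DNA at replication forks. Of these genes, 5 were higher in ΔM, and RNA levels of the MCM genes were very unequal within each library. The subunits form the ring in equal numbers, but FPKMs are levels of RNA and not numbers of protein. *Mcm6* was the highest, at 9.38 FPKM in WT (8.86 to 9.93) and 10.26 FPKM in ΔM (9.68 to 10.87), a log2 ratio of 0.12. *Mcm5* was at 2.15 FPKM (1.88 to 2.45) and 2.80 FPKM (2.47 to 3.16), a log2 ratio of 0.27, and was the MCM gene with intervals that did not overlap, although with its shortest annotated transcript they did. *Mcm3* was at 1.21 and 1.29 FPKM, a log2 ratio of 0.05. The remaining MCM genes were under 1 FPKM, with *Mcm4* at 0.37 and 0.62 FPKM, *Mcm2* at 0.15 and 0.28 FPKM, and *Mcm7*, the exception in direction, at 0.21 and 0.07 FPKM. The highest value was 62.5 times that of *Mcm2* in WT and 36.6 times that of *Mcm2* in ΔM, leaving out *Mcm7*. Exons of *Mcm7* overlap those of *Cops6*, *Ap4m1*, *Mir25* and *Mir93*, with an overlap on the same strand among these. Whether reads of shared exons were counted for another gene was not tested. The other licensing factors were low as well. *Cdc45*, a partner of the MCM ring at the fork, was at 0.42 and 0.59 FPKM, the licensing inhibitor *Gmnn* at 0.21 and 0.28 FPKM, and the loading factor *Cdc6* at 0.01 FPKM in both libraries.

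Of the 4 genes of DNA synthesis 2 were expressed, and 3 were higher in ΔM. *Pcna*, the sliding clamp of the replicative polymerases, was at 7.99 FPKM in WT (6.92 to 9.18) and 9.23 FPKM in ΔM (8.01 to 10.58), a log2 ratio of 0.19. *Rrm1*, the large subunit of ribonucleotide reductase, was at 1.69 and 2.13 FPKM, a log2 ratio of 0.22. For both genes the intervals of the libraries overlapped. *Rrm2*, the subunit of the same enzyme that is made in S phase, was at 0.05 and 0.03 FPKM, and *Tyms*, which makes thymidylate, at 0.23 and 0.39 FPKM.

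*Cdk1*, the kinase of mitotic entry, had the highest ratio of the 17 expressed members. It was at 3.24 FPKM in WT (2.47 to 4.18) and 9.25 FPKM in ΔM (7.83 to 10.86), a log2 ratio of 1.27 and 2.85-fold higher in ΔM on the FPKM scale. *Cdk1* has 7 annotated transcripts of 378 to 2886 nt. With the shortest one the intervals were 2.01 to 4.94 in WT and 6.94 to 12.1 FPKM in ΔM and did not overlap. Both libraries were given the same length there. A fragment on a short transcript adds more FPKM than one on a long transcript. The part of the transcript mix in the difference of *Cdk1* was not tested. The cyclins that activate CDK1 were far lower than the kinase. *Ccna2* was at 0.16 and 0.26 FPKM, *Ccnb1* at 0.03 and 0.08 FPKM, and *Ccnb2* at 0.48 and 0.77 FPKM. Together these 3 cyclin genes were at 0.67 in WT and 1.11 FPKM in ΔM.

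The 8 mitosis genes were under 1 FPKM in both libraries, with sums of 2.83 in WT and 4.27 FPKM in ΔM, and 6 of them were higher in ΔM. The 2 exceptions include *Mki67*, the proliferation antigen Ki-67, at 0.71 FPKM in WT (0.63 to 0.80) and 0.42 FPKM in ΔM (0.35 to 0.50). *Mki67* is a long gene with 1 annotated transcript, so that these low values rest on about 260 and 136 fragments. The other was *Cdc20*, an activator of the anaphase-promoting complex, at 0.16 and 0.08 FPKM. *Aurka*, a kinase of the spindle poles, was at 0.16 FPKM in WT (0.08 to 0.30) and 0.77 FPKM in ΔM (0.55 to 1.04). *Birc5*, the survivin subunit of the chromosomal passenger complex, was at 0.05 FPKM in WT (0.00 to 0.22) and 0.57 FPKM in ΔM (0.31 to 0.96). The intervals of *Mki67*, *Aurka* and *Birc5* did not overlap, although those of *Aurka* did with its shortest annotated transcript (0.02 to 0.53 in WT and 0.37 to 1.42 in ΔM). *Mki67* thus differed in the direction opposite to *Aurka* and *Birc5*. Intervals of the remaining mitosis genes overlapped, although those of *Bub1* did not with its longest annotated transcript. *Aurkb*, the kinase of the same complex as survivin, was at 0.83 and 0.98 FPKM, and *Top2a*, the topoisomerase that untangles chromosomes, at 0.84 and 0.85 FPKM. *Bub1*, a kinase of the spindle checkpoint, was at 0.07 and 0.51 FPKM, and *Plk1*, a kinase with several tasks in mitosis, at 0.01 and 0.09 FPKM.

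Differences of at least 1.5-fold on the log2(FPKM + 1) scale were found for 3 of the 17 expressed members (17.6%), against 10.2% of the 8078 expressed protein-coding genes. Those were *Cdk1*, higher in ΔM, and *Ccnd2* and *E2f3*, lower in ΔM. Among protein-coding genes 4.82% were higher by this fold and 5.36% lower, and of those from 1 to 20 FPKM, the range of 16 of the 17 members, 11.1% differed in either direction. Of all expressed genes, including short noncoding RNA genes, 18.7% differed. At the share of protein-coding genes, 1.73 of 17 genes would be counted. At least 2-fold, 2 members differed (11.8%), *Cdk1* and *E2f3*, against 2.51% of protein-coding genes. Higher values in ΔM were found for 10 members (58.8%), against 49.5% of protein-coding genes. The median log2 ratio was 0.05 over the members and -0.00 over protein-coding genes. Counting intervals did not overlap for 7 of the 17 (41.2%), against 37.2% of protein-coding genes with an interval. Intervals without overlap were thus common at this depth. *E2f3* is among the 7, although the number of fragments behind its value is not known.

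**Figure D2:**
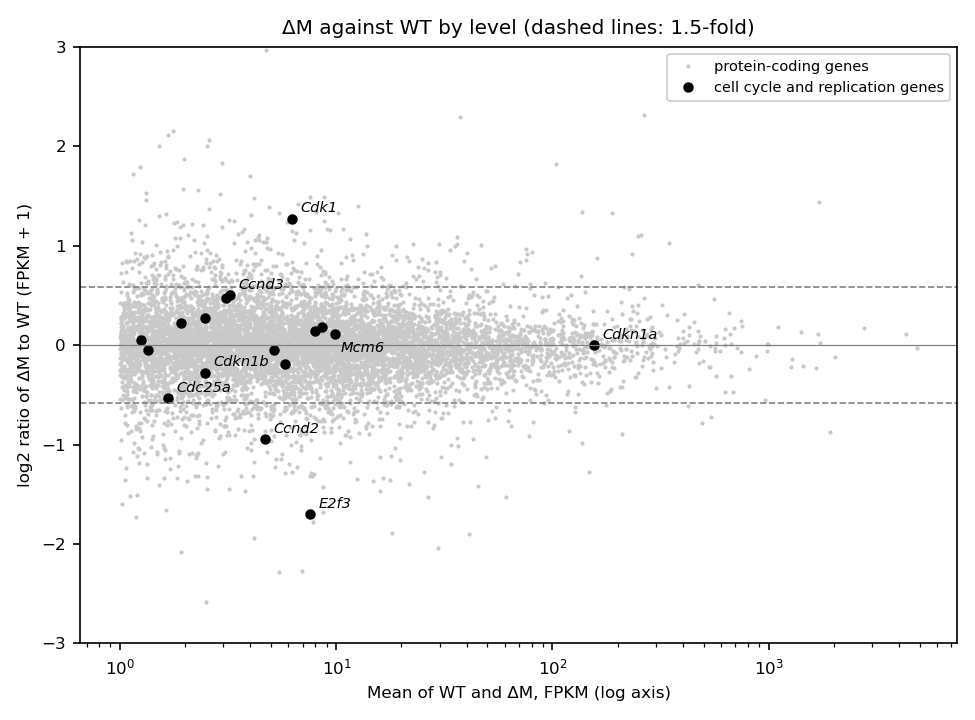
Log2 ratio of ΔM over WT (FPKM + 1) against the mean FPKM on a log axis for protein-coding genes (grey) and the 17 members (black), expressed genes in each case. Dashed lines mark 1.5-fold, 10 grey genes lie outside the plotted range, and *Cdk1*, *Ccnd2* and *E2f3* are the members beyond the lines.

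By role, the medians of the log2 ratios stayed close to 0. They were -0.05 over 5 genes of G1 cyclins and kinases, -0.14 over 2 CDK inhibitors, -0.05 over 3 genes of the step into S phase, 0.12 over 3 licensing genes and 0.20 over 2 genes of DNA synthesis. The remaining roles had 1 or 0 genes above the minimum. Of the 24 members under 1 FPKM, 18 (75%) were higher in ΔM, 5 were lower and 1 was equal, against 47.4% higher and 45.3% lower among protein-coding genes in the same range. Most of these values rest on few fragments, and intervals did not overlap for 3 of the 24 (12.5%), against 7% of protein-coding genes.

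Related genes outside the members were taken from 4 wider lists. Of 38 other replication genes, 23 were expressed, with a median log2 ratio of 0.12 and 15 higher in ΔM. At least 1.5-fold higher were *Pold1*, the catalytic subunit of polymerase delta, at 0.68 and 2.98 FPKM (log2 ratio 1.24), and *Gins1*, a subunit of the replicative helicase complex, at 1.41 and 4.49 FPKM (log2 ratio 1.19). The remaining gene higher by this fold was the chromatin remodeler *Hells*, at 1.13 and 2.60 FPKM (log2 ratio 0.76), named after its value was seen. The shortest annotated transcript of *Hells* has 190 nt, so that the limit given for *E2f3* holds for it too. *Rfc1*, the large subunit of the clamp loader of PCNA, was the 1 gene lower by this fold, at 5.09 and 2.81 FPKM (log2 ratio -0.68). *Pola2*, a subunit of the polymerase that starts new strands, was at 2.34 and 1.41 FPKM (log2 ratio -0.47). Genes of one replication fork thus differed in both directions.

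Most other mitosis genes were low too. Of 35 such genes 7 were expressed, with a median log2 ratio of -0.03. *Pttg1*, which encodes the separase inhibitor securin and is named after its value was seen, was far above the rest at 88.61 and 86.96 FPKM, and made up 74.8% and 76.7% of the sum of this list. *Tpx2*, an activator of aurora A, was at 10.94 in WT and 6.88 FPKM in ΔM (log2 ratio -0.60), which is the direction opposite to *Aurka*. *Nusap1*, a microtubule-binding protein of the spindle, was at 1.27 and 0.76 FPKM (log2 ratio -0.37). *Racgap1*, which acts in cytokinesis, was at 1.23 and 2.23 FPKM (log2 ratio 0.53), and the checkpoint kinase gene *Bub1b* at 1.49 and 1.75 FPKM (log2 ratio 0.14).

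Of 17 other genes of RB, E2F and CDK inhibitors, 10 were expressed, with a median log2 ratio of -0.06. *E2f6*, an E2F that represses, was at 0.23 in WT and 11.02 FPKM in ΔM (log2 ratio 3.29). It has annotated transcripts of 143 and 2421 nt, so that the limit given for *E2f3* holds for it too, and the 2 E2F genes differed in opposite directions. *Ccnh*, a subunit of the kinase that activates CDKs, was at 3.81 and 1.65 FPKM (log2 ratio -0.86), and its shortest annotated transcript has 297 nt. *Cdkn2d*, an inhibitor of the same family as *Cdkn2c*, was at 1.28 and 2.47 FPKM (log2 ratio 0.61). *Cdkn1c*, of the same family as *Cdkn1a* and *Cdkn1b*, was at 2.34 and 1.49 FPKM (log2 ratio -0.42). Over these 3 lists, 5 of the 40 expressed genes were at least 1.5-fold higher in ΔM and 3 were lower, where 4.82% and 5.36% of expressed protein-coding genes were. Of the 5, *E2f6* and *Pold1* were under 1 FPKM in WT and counted as expressed only through ΔM.

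*Cdkn1a* is a classical target of p53, and 11 of 15 genes of the p53 pathway were expressed. Their median log2 ratio was -0.23, 9 of the 11 were lower in ΔM, and 0 of them differed by 1.5-fold. Among expressed protein-coding genes 50.2% were lower and 10.2% differed by this fold. *Gadd45a*, a stress-response gene, was at 7.57 and 4.74 FPKM (log2 ratio -0.58), and *Sesn2*, a regulator of growth signaling, at 1.64 and 0.98 FPKM (log2 ratio -0.42). *Phlda3*, an inhibitor of AKT, was at 1.92 and 3.0 FPKM (log2 ratio 0.45), and the kinase gene *Plk3* at 1.92 and 2.87 FPKM (log2 ratio 0.41).

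**Figure D3:**
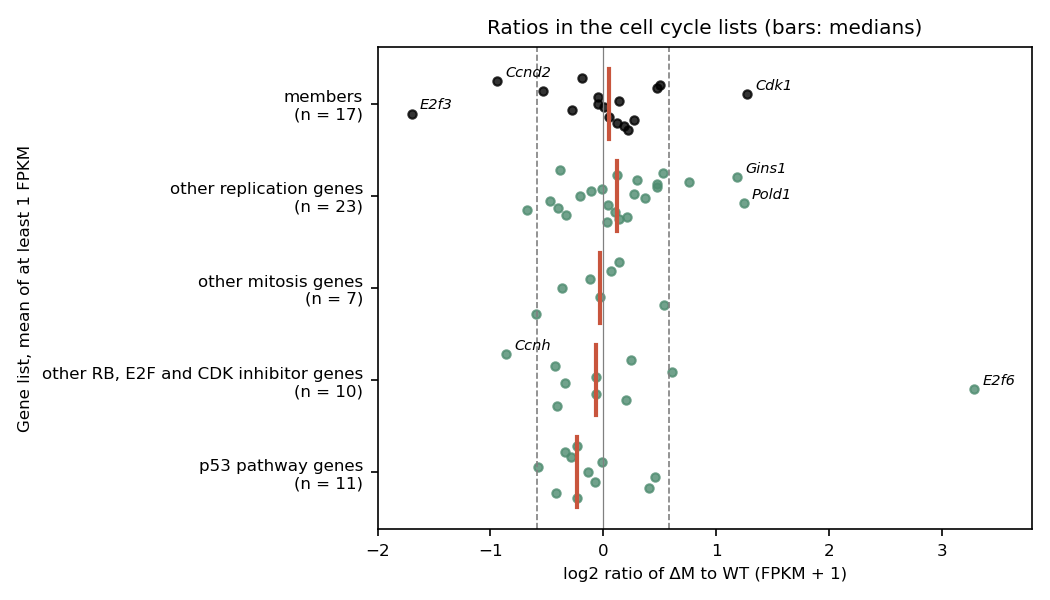
Log2 ratio of ΔM over WT (FPKM + 1) of each expressed gene in the members and the 4 wider lists, with n per list. Red bars are medians, between -0.23 and 0.12, and dashed lines mark 1.5-fold; *E2f6*, with an annotated transcript of 143 nt, has the highest ratio, 3.29.

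The promoters of the members were searched for motifs of the regulators named above, as a feature that is independent of the FPKMs. RefSeq promoters (GRCm38.p6, from 250 bases before to 50 bases after a gene's start) were listed for 34 members. The letters searched, on both strands, were TTTCCCGC, TTTCGCGC, TTTGGCGC and TTTGCCGC for E2F, and TTTGAA and TTCGAA for CHR. The E2F letters were in a promoter of 11 of the 34 members (32.4%), against 2.6% of 27025 genes and 4.91% of the expressed protein-coding genes. The CHR letters were in 13 of 34 (38.2%), against 21.7% and 15.9%. CCAAT, which NF-Y binds, was in 25 of 34 (73.5%), against 41.1% and 42.4%. A gene with several listed promoters counted once, and there were 1.18 promoters per member and 1.22 per gene overall.

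E2F and CHR letters were spread unequally over the roles. E2F letters were in 6 of 8 licensing genes, 2 of 3 genes of RB and E2F, 2 of 3 genes of the step into S phase (*Cdk2* and *Cdc25a*, not *Ccne1*), 1 of 3 S/G2/M genes, 0 of 4 genes of DNA synthesis and nucleotides and 0 of 7 mitosis genes. CHR letters were in 6 of 7 mitosis genes, 2 of 3 S/G2/M genes, 2 of 3 genes of RB and E2F, 3 of 8 licensing genes and 0 of the genes of the other roles. CCAAT differed little between licensing genes (6 of 8) and mitosis genes (6 of 7). *Cdt1* is among the 34 members and the 8 licensing genes, since its promoter was listed. Windows of 30 bases are shown for members of both kinds, 5′ to 3′ on the strand of the gene, with the letters found in capitals. *Mcm5* and *Mcm6* stand for licensing, *Cdc25a* for the step into S phase, *Cdk1* for a promoter with both motifs, and *Mki67*, *Cdc20* and *Ccnb2* for mitosis and its cyclins.
*Mcm5* chr8:75109345-75109374 (+), E2F, 153 bases before the start: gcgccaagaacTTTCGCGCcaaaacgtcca
*Mcm6* chr1:128359734-128359763 (-), E2F, 47 bases before: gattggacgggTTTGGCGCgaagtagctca
*Cdc25a* chr9:109875501-109875530 (+), E2F, 67 bases before: ggtgaattccgTTTGGCGCcaactaggaaa
*Cdk1* chr10:69353025-69353054 (-), E2F, 131 bases before: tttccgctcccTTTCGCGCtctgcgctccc
*Cdk1* chr10:69352966-69352995 (-), CHR, 71 bases before: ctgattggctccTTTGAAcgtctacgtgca
*Mki67* chr7:135716460-135716489 (-), CHR, 98 bases before: ccgccgttttggTTTGAAtcgggcgggctg
*Cdc20* chr4:118437344-118437373 (-), CHR, 18 bases before: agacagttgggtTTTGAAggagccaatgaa
*Ccnb2* chr9:70421704-70421733 (-), CHR, 167 bases before: cagggactagaaTTTGAAaataagactgta
In *Mcm5* a further E2F match on the other strand overlaps the one shown. *Mcm6* has further E2F matches 106 and 110 bases before the start, and *Mki67* has a further CHR match 116 bases before. A match is a description of letters and not of binding, and where no match was found only these letters are absent from the window.

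Members of different level differed in E2F and CHR letters but hardly in CCAAT. Level cannot be told apart from role here, since all mitosis genes were under 1 FPKM. E2F letters were in 7 of 15 expressed members (46.7%) and in 3 of 18 members under 1 FPKM (16.7%), leaving out *Cdt1*. CHR letters were in 2 of 15 (13.3%) and in 11 of 18 (61.1%), and CCAAT in 11 of 15 (73.3%) and in 14 of 18 (77.8%). The 2 expressed members with CHR letters were *Cdk1* and *E2f3*, which differed in opposite directions between the libraries. The same E2F letters stood in the promoters of *Mcm6* and *Cdc25a*, and the ratios of these genes, 0.12 and -0.54, differed in sign. The intervals of *Mcm6* overlapped between the libraries, and the limit given for *E2f3* holds here. Whether a shared motif goes with direction was not tested. Direction was not counted over all members with a motif.

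**Figure D4:**
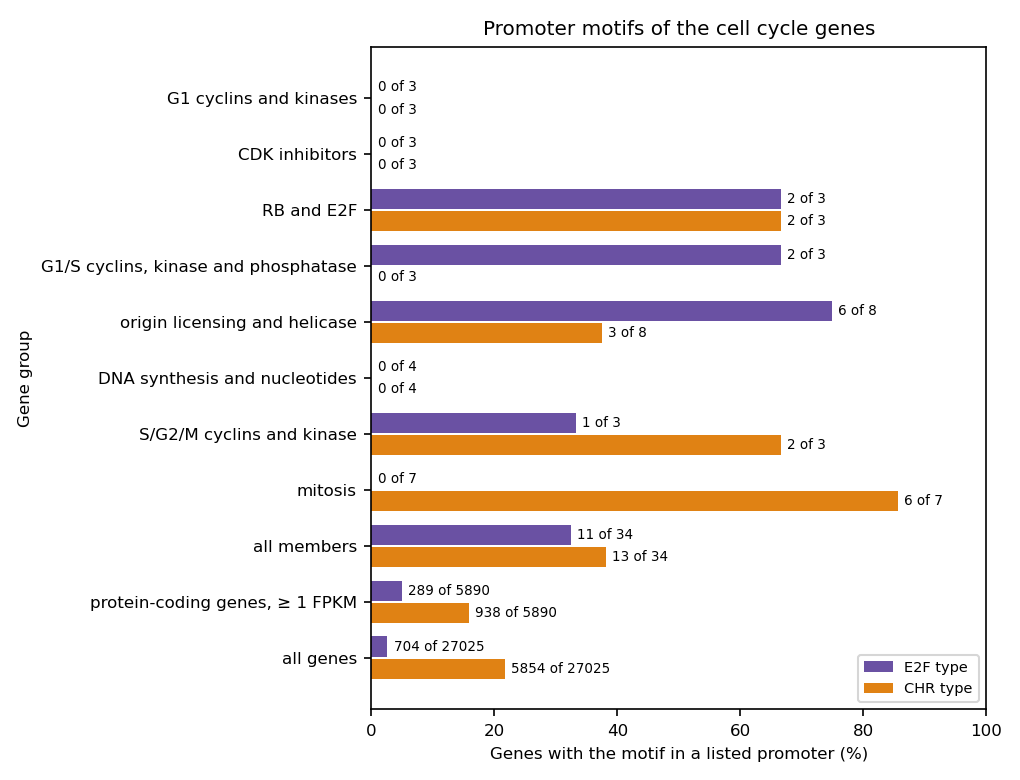
Percent of genes with E2F letters (purple) or CHR letters (orange) in a listed promoter, by role, over all members, over expressed protein-coding genes and over all genes, with the counts beside each bar. E2F letters are most frequent in licensing genes (6 of 8) and CHR letters in mitosis genes (6 of 7).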

How the data were processed

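RNA-Seq of rRNA-depleted RNA from 1 WT and 1 ΔM library was used. The authors trimmed reads with Cutadapt, mapped them to mm9 with Segemehl, kept unique hits and ran Cufflinks on Ensembl exons. They deposited 1 FPKM per gene and library, to 2 decimals. No count model was used on these. FPKMs of genes with transcripts near the fragment length are uncertain, since few fragments then give a high value.

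Ratios were taken as log2((ΔM + 1)/(WT + 1)), which understates differences of low genes, without scaling between libraries. Expressed genes are those with a mean of 1 FPKM or more. Transcript lengths, types and strands came from GENCODE M1 (NCBIM37), which held 37039 of 37451 identifiers. Depth was searched for as the number of fragments under which low values of genes of 350 to 900 nt are whole multiples of 1 fragment. Within 0.15 fragments, 93.8% of 1225 values in WT and 94.7% of 1216 in ΔM were whole, against a median of 19.4% and 17.7% at other depths. The search was tested on 3 simulated libraries. Promoters on chromosome 18 were left out.

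All members were named, and from each wider list the 2 highest and the 2 lowest ratios. Members and lists were chosen with earlier results of these data known. Nothing in the labels says whether the cells came from separate mice. Alternatives covered the pseudocount, the minimum, centring, the fold and the transcript length. Scripts ran in Python 3.11.15 with numpy 2.4.6, pandas 2.3.3, scipy 1.17.1 and matplotlib 3.10.9.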

Additional observations from a re-analysis of the deposited data

How the results depend on the processing

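The count of members that differed at least 1.5-fold, 3 with a pseudocount of 1 FPKM and a minimum mean of 1 FPKM, was 6 with a pseudocount of 0.1 FPKM, 1 with a pseudocount of 10 FPKM, 5 with no filter on low values and 0 with a minimum of 10 FPKM. A larger pseudocount shrinks ratios of low genes by construction, and the filters alter which genes are counted. The count was 3 after centring on protein-coding genes, 2 with a threshold of 2-fold and 2 without *E2f3*. Shares of protein-coding genes were taken only at a pseudocount and minimum mean of 1 FPKM, 10.2% at 1.5-fold and 2.51% at 2-fold. The counts at other settings therefore have no share beside them. The minimum of 10 FPKM leaves 1 member, *Cdkn1a*, so that its values say nothing about the others. The median log2 ratio of the members, 0.05, was 0.08 with no filter, 0.07 after centring and 0.08 without *E2f3*, and other pseudocounts cannot turn the sign of a ratio. The intervals of the libraries did not overlap for 10 of 41 members with the median transcript length, for 15 with the longest transcript and for 6 with the shortest. *Ccnd2*, *Ccnd3*, *Cdc25a*, *Cdk1*, *Mki67* and *Birc5* were in all 3 counts. Each count used the same length for a gene in both libraries, so a difference in transcript mix was not tested. With the shortest transcript *E2f3* has no interval. At the median length the shares of protein-coding genes were 37.2% of expressed genes and 7% of those under 1 FPKM. Shares were not taken for the other lengths, so those counts have no share beside them. The shortest transcript and leaving out *E2f3* were chosen after seeing the data. Some medians turned sign. With no filter, that of the genes of the step into S phase went from -0.05 to 0.21 and that of the CDK inhibitors from -0.14 to 0.00 (0.0043), and with a minimum of 10 FPKM, that of the other RB, E2F and CDK inhibitor genes went from -0.06 to 0.20, which is then 1 gene. No paired analysis was possible because WT and ΔM have 1 library each, and leaving a library out would have left no comparison. At the estimated depth, genes under 1 FPKM rest on few fragments unless they are long.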
